A study of Mus musculus with 2 samples.

Results

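Cells that carried more than 20% of their UMIs (counted molecules of mRNA) on transcripts of the mitochondrial genome numbered 7056, out of 20726 cells captured from MC38 tumours. They were 2623 control cells and 4433 telmisartan cells, and are called cells over the limit. Each also had at least 10 Sample Tag reads, at least 75% of which fell on the tag of its group, and UMIs from at least 150 genes. The mitochondrial share, the number of genes and the tag share therefore chose these cells, and their values are given as description only. The 10001 cells that met the other criteria with a share of at most 20% are called cells under the limit.

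Mitochondrial mRNA is made and kept inside the organelle, whereas most other mRNA lies free in the cytoplasm and some noncoding RNA, such as *Malat1*, stays in the nucleus. A damaged plasma membrane can release cytoplasmic RNA while mitochondria and nucleus are held back, so a high mitochondrial share is widely used as a sign of damaged cells. Some intact cell types also carry many mitochondria. Which of these applied to any cell here was not tested.

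Tumours of MC38, a mouse colon adenocarcinoma line, were grown under the skin of female C57BL/6 mice aged 6 to 8 weeks from 500000 cells. No transgene or deletion was stated for the mice of either group. Controls received vehicle, and treated mice received telmisartan, a blocker of the type I angiotensin II receptor, at 5 mg/kg daily into the stomach until harvest on day 13. Live CD45+ cells, that is leukocytes, were sorted from 5 pooled mice per group and run in 1 BD Rhapsody capture, where Sample Tag 1 marked control and tag 2 telmisartan.

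Each group was thus 1 pool, in which the 5 mice cannot be told apart, and there are no replicates. No difference between the groups could be tested. Bracketed ranges are exact 95% intervals and cover counting error only. Depth was 54619115 UMIs over 8738 control cells and 42401764 UMIs over 10222 telmisartan cells with a group. Further values are given for control first and telmisartan next.

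The sex of the animals went against the labels in both pools, on both sides of the limit. The Y-linked gene *Ddx3y* had 190 UMIs over and 4257 under the limit in control cells, and 367 and 3731 in telmisartan cells. The Y-linked *Eif2s3y* had 91 and 3109 UMIs in control cells and 145 and 2034 in telmisartan cells. *Xist*, the RNA of the inactive X chromosome in female cells, had 2 and 10 UMIs in control cells and 3 and 8 in telmisartan cells. Male transcripts therefore dominated in mice that were stated to be female.

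The leukocyte label was set beside *Ptprc*, which encodes CD45, as a sum over cells. Such a sum does not show whether each cell was a leukocyte. *Ptprc* stood over the limit at 421 UMIs per 1000000 non-mitochondrial UMIs in control and 368 in telmisartan, against 471 and 424 under it. Relative to other non-mitochondrial RNA it thus kept most of its level, with log2 ratios of over to under of -0.16 and -0.20. All further levels use this scale, written UPM, since mitochondrial UMIs chose the cells.

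Cells over the limit made up 33.7% [32.7 to 34.8] of the 7775 control cells with at least 150 genes and 47.8% [46.7 to 48.8] of the 9282 telmisartan cells. The 963 and 940 cells with a group but fewer than 150 genes, which are left out of these shares, were all over 20%, so the shares depend on the minimum of genes. The median share was 59.7% and 54.8% over the limit, against less than 10% in both groups under it. This order of the pools was the same at limits of 10 and 30%, in cells with a tag share of at least 90% and in cells with at least 500 genes, where the shares were 13.9% and 23.1%.

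What set the cells over the limit apart was the small amount of other RNA, while the amount of mitochondrial RNA was similar. Their median was 661 and 591 mitochondrial UMIs, against 670 and 513 under the limit. Their median of non-mitochondrial UMIs was 386 and 462, against 8431.5 and 6002. A cell over the limit had UMIs from a median of 308 and 357 genes, against 2778.5 and 2270. Together these cells held 34.7% and 51.9% of all mitochondrial UMIs but 4.16% and 9.38% of all others.

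The share over the limit was tied to the number of genes in both pools alike. Of cells with 150 to fewer than 300 genes, 1288 of 1289 control and 1757 of 1758 telmisartan cells were over the limit. The share was 62.2% [58.9 to 65.4] and 67.3% [64.9 to 69.7] at 500 to fewer than 1000 genes. It was 1.90% [1.30 to 2.69] and 1.93% [1.34 to 2.68] at 2000 to fewer than 3000 genes. From 3000 genes on, it was 0 of 2184 control cells, which allows up to 0.169%, and 1 of 1148 telmisartan cells. Within each range of gene number the groups lay closer than over all cells, and telmisartan had more cells with few genes.

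**Figure D1:**
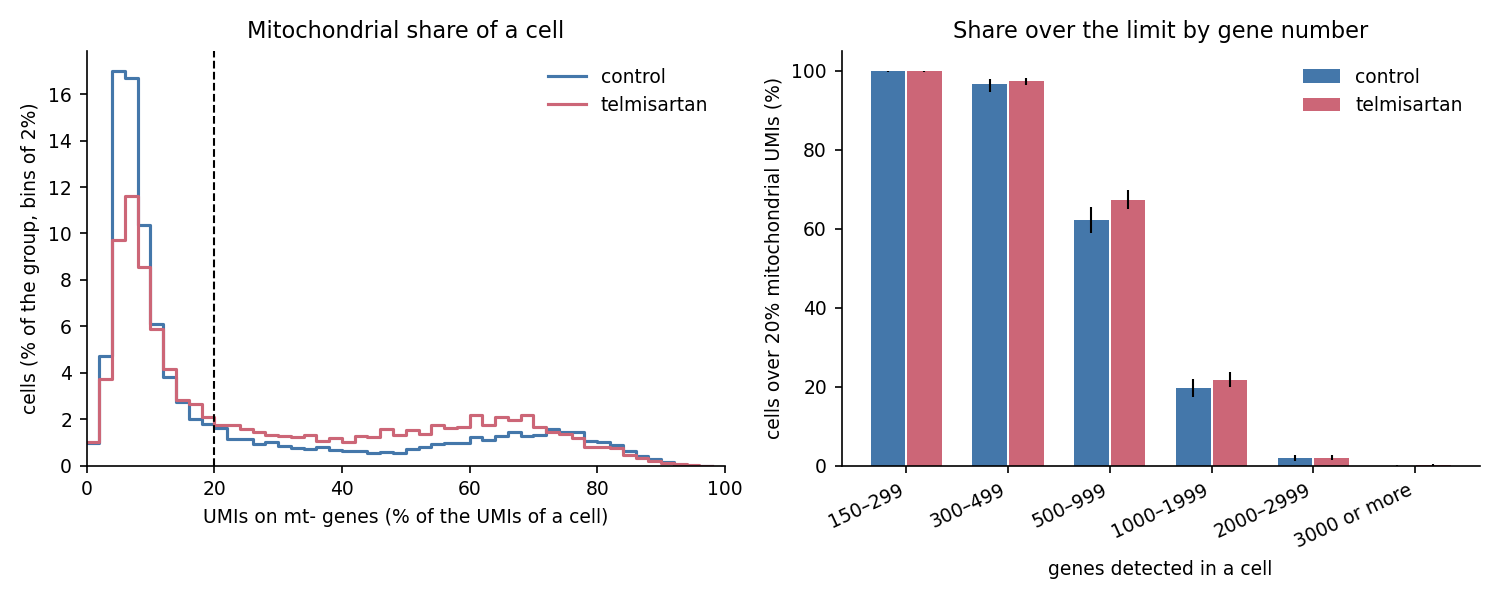
Left, number of cells (% of the group, bins of 2%) against the share of a cell's UMIs on mitochondrial genes (%), for control and telmisartan, with a dashed line at 20%; right, cells over 20% (% of cells) by number of genes detected, with 95% Clopper-Pearson intervals for counting error. Both groups have a peak below 10% and a lower second one, in control with 1.58% of cells at 72 to 74% after 0.527% at 44 to 46%, and in telmisartan with 2.19% at 68 to 70% after 1.02% at 40 to 42%. In both the share over the limit lies above 96% below 500 genes and near 2% at 2000 to fewer than 3000 genes.

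Cells just under and just over the limit were of similar depth. From 18 to 20% there were 139 and 192 cells, with a median of 2112 and 2072 non-mitochondrial UMIs. From 20 to 22% there were 124 and 164 cells, with a median of 1829 and 2003. *Malat1* stood at 10841 and 12091 UPM just under the limit and at 13435 and 14777 just over it. *Lyz2*, the lysozyme of macrophages, stood at 7426 and 7836 just under and at 9102 and 7352 just over.

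Sample Tags, which bind the cell surface, were abundant on cells over the limit. These cells had a median of 445 and 259 tag reads, against 203 and 206 under the limit. The tag of the cell's own group held 97.3% and 95.9% of their tag reads, against 96.0% and 94.9%. In control the median number of tag reads was 235 at shares of 20 to 40% and 821 at 80 to 100%. In telmisartan it was 205 and 287.5.

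All 13 protein-coding genes of the mitochondrial genome were found over the limit, in nearly the proportions found under it. *mt-Co1*, a subunit of cytochrome c oxidase, was the largest, with 34.6% [34.5 to 34.6] and 35.8% [35.8 to 35.9] of mitochondrial UMIs over the limit and 35.7% and 37.4% under it. *mt-Co2*, of the same enzyme, held 16.3% and 17.0% over and 15.8% and 16.6% under. *mt-Nd4*, of complex I, held 6.40% and 5.59% over and 6.19% and 5.28% under. *mt-Nd6*, the gene on the other strand, held 0.0704% and 0.0869% over and 0.0867% and 0.0973% under. In both groups *mt-Co1*, *mt-Nd6*, *mt-Atp6* and *mt-Atp8* held a smaller share over the limit and the other 9 genes a larger one.

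Most cells over the limit fell into clusters that were left unnamed when all cells were clustered on their non-mitochondrial genes. At a resolution of 0.5, 86.0% [84.7 to 87.4] of control and 86.4% [85.4 to 87.4] of telmisartan cells over the limit fell into clusters 1 and 3. Under the limit these clusters held 8.09% and 13.9% of cells. They had 0 high markers of other lineages, and the macrophage-like name was kept for clusters whose median UMIs were at least 0.333 of those of cells under the limit. In cluster 3 this was 0.200 and 0.263, and in cluster 1 0.106 and 0.144. With 11 macrophage markers detected in cluster 3 and 7 in cluster 1, both would have been macrophage-like but for their depth. As many were detected in clusters of other lineages, with 11 in the T-like cluster 9, 10 in the dendritic-like cluster 7 and 9 in the neutrophil-like cluster 11. Being unnamed here thus means shallow, and whether lineage was kept or lost cannot be read from it. Since every gene of the cells went into the clusters, their genes are a description.

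Cluster 1 was nearly all cells over the limit, with 1675 of 1685 control and 2739 of 2755 telmisartan cells. Its cells had a median of 301 non-mitochondrial UMIs, and its leading genes were *Gm47283*, *Lrrc8c*, *Gm42418*, *Rbm25* and *Luc7l3*, of which *Rbm25* and *Luc7l3* encode splicing factors that act in the nucleus. Cluster 3 was mixed, with 582 of 989 control and 1092 of 1749 telmisartan cells over the limit. It was led by *Gm47283*, *Malat1* and *Pde1b*. In both groups together the macrophage list stood over the limit at 14583 UPM in cluster 1 and 15309 in cluster 3, against 12984 in cluster 5, 17594 in cluster 6, 18662 in cluster 2 and 34295 in cluster 4, all macrophage-like. It was 8924 in the dendritic-like cluster 7 and 5629 in the T-like cluster 9, so in this list the unnamed clusters lay within the span of the named ones. Cluster 1 took 10.9% and 11.2% of cells at shares of 20 to 40%, 60.6% and 65.5% at 40 to 60%, and 95.4% and 95.3% at 60 to 80%. The part of cluster 1 thus grew with the mitochondrial share.

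Cells over the limit in named clusters were macrophage-like, dendritic-like or T-like, with few neutrophil-like. They numbered 366 of 2623 (14.0%) in control and 602 of 4433 (13.6%) in telmisartan. Macrophage-like cells were 53.3% [48.0 to 58.5] and 56.0% [51.9 to 60.0] of them, against 89.2% and 88.5% of named cells under the limit. Dendritic-like cells were 36.6% [31.7 to 41.8] and 27.1% [23.6 to 30.8], against 7.58% and 7.47%. T-like cells were 9.84% [6.98 to 13.4] and 16.4% [13.6 to 19.7], against 2.05% and 3.45%. At a resolution of 0.3, the dendritic-like cells over the limit were only 55 and 72, beside 164 and 285 macrophage-like and 36 and 97 T-like cells. These shares depend on the resolution and on the naming, which left shallow clusters out of the macrophage-like class, so they do not give the make-up of the cells over the limit. Clusters were also named from both sides of the limit together. In both groups together, the dendritic-like cluster 7 had 249 cells over the limit, with dendritic cell markers at 233 UPM on 79 UMIs. Under the limit these markers stood at 682 UPM on 2423 UMIs. Macrophage markers in this cluster stood at 8924 UPM over the limit and 5487 under it. In the dendritic-like cluster 10, dendritic cell markers stood at 2577 and 4131 UPM.

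Telmisartan had the larger share of cells over the limit in 4 of 4 named classes. The share was 195 of 4419 (4.41%) control and 337 of 4032 (8.36%) telmisartan macrophage-like cells. It was 134 of 493 (27.2%) and 163 of 475 (34.3%) dendritic-like cells, and at a resolution of 0.3 14.7% and 23.1%. It was 36 of 133 (27.1%) and 99 of 243 (40.7%) T-like cells, and 1 of 56 and 3 of 28 neutrophil-like cells. Classes cannot be set against each other here, since depth was part of the rule for the macrophage-like name.

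Within the macrophage-like class the share over the limit differed by cluster. It was 43 of 2151 and 65 of 1668 cells in cluster 2, which held the monocyte genes *Ccr2*, *Vcan* and *Chil3* among its 10 leading genes. This cluster held 2151 of 4419 and 1668 of 4032 macrophage-like cells, so the name also covers many cells led by monocyte genes. The share was 5.35% and 8.55% in cluster 4, led by *Gas6*, *Cbr2* and *Folr2*, and 9.83% and 9.86% in cluster 5, led by the interferon-induced *Ifit3*, *Ifit1* and *Rsad2*. It was 8.82% [6.75 to 11.3] and 20.7% [17.4 to 24.3] in cluster 6, led by genes of mitosis such as *Kif20a* and *Ccna2*. It was 6 of 341 and 1 of 125 cells in cluster 8, led by *Iigp1* and other interferon-gamma genes with *Cxcl9*. Cluster 6 thus showed the widest gap between the pools. Cluster 8 had the smaller share in telmisartan, but on few cells. Its shares were 1.76% [0.65 to 3.79] in control and 0.8% [0.02 to 4.38] in telmisartan, with overlapping intervals.

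Dendritic-like cells also differed among themselves. Cluster 7, led by *Cd209a* and *Ffar2*, lay over the limit in 28.5% [24.1 to 33.3] and 36.5% [31.6 to 41.6] of its cells. Cluster 10, led by *Fscn1* and *Il12b* of activated migrating cells, did so in 25.8% [17.1 to 36.2] and 33.3% [22.9 to 45.2]. Cluster 12, led by *Xcr1* of cross-presenting cells, had 0 of 15 control and 0 of 22 telmisartan cells over the limit, which allows up to 21.8% and 15.4%.

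**Figure D2:**
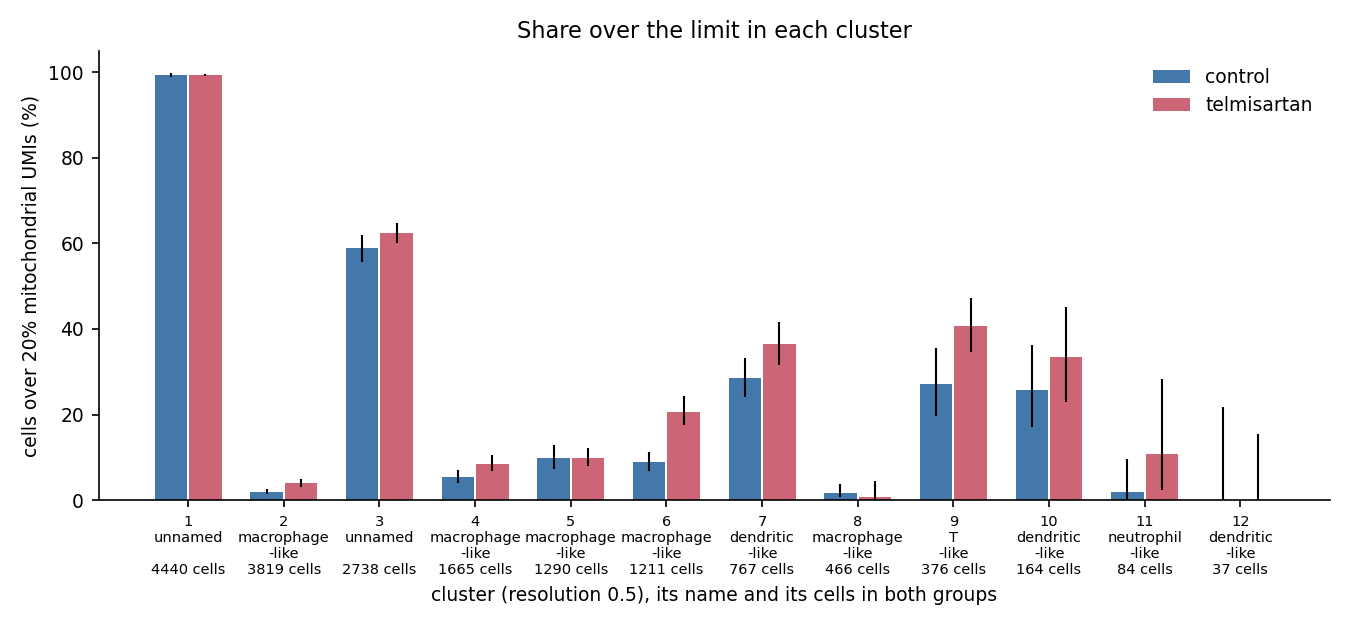
Share of cells over 20% mitochondrial UMIs (%, bars from 0, with 95% Clopper-Pearson intervals for counting error) in each of 12 clusters, for control and telmisartan, with the name and number of cells of each cluster. Cluster 1 stands at 99.4% in both groups and cluster 3 at 58.8% and 62.4%, while the macrophage-like clusters lie at 20.7% or below.

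Macrophage transcripts made up most of the lineage RNA that remained. The 11 macrophage markers together had 31361 UMIs (15601 UPM) over the limit in control and 54955 (16297 UPM) in telmisartan, with *Lyz2* the most abundant and no marker at 0. Their log2 ratio of over to under was -0.27 [-0.29 to -0.25] and -0.22 [-0.23 to -0.21], but it was 0.19 and 0.18 at a limit of 10% and 0.46 and 0.55 in cells with 500 to 2000 non-mitochondrial UMIs, called cells of bounded depth. The direction of the list thus depended on which cells were compared.

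Single macrophage genes moved in opposite ways. *Lyz2* was lower over the limit, at 6730 against 11069 UPM in control and 6152 against 10031 in telmisartan, though its ratios turned to 0.25 and 0.61 in cells of 500 to 2000 non-mitochondrial UMIs. *Apoe*, a lipid carrier made by tissue macrophages, was higher, at 2467 against 1172 and 4187 against 2488 UPM. The complement genes were split, with *C1qb* at log2 ratios of 0.24 and 0.17 and *C1qc* at -0.61 and -0.66. *Mrc1*, the mannose receptor, stood at -0.00 in both groups, and *Csf1r*, the receptor for the main macrophage growth factor, at -0.11 and -0.10. The sum of the 6 monocyte markers was lower, with list ratios of -0.50 [-0.57 to -0.44] and -0.48 [-0.53 to -0.43]. It stood at -0.78 and -0.94 in the cells of bounded depth. Of these markers, 4 of 6 in control and 6 of 6 in telmisartan were lower over all cells.

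T cell transcripts were more concentrated over the limit when UMIs were summed over all cells. The 10 T cell markers had 266 UMIs (132 UPM) and 634 UMIs (188 UPM) over the limit, led by *Skap1* and *Trbc2*, with none at 0. Their list ratio was 0.91 [0.72 to 1.09] and 0.61 [0.49 to 0.73], 10 and 9 of 10 markers being higher. It turned to -1.16 and -1.33 in cells of 500 to 2000 non-mitochondrial UMIs, and in telmisartan to -0.01 when each cell counted equally. *Skap1*, an adaptor of T cell receptor signalling, reached 1.95 and 1.52, and *Cd8a*, of cytotoxic T cells, 2.15 and 0.86.

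The cells of bounded depth differed in depth and make-up on either side of the limit, so the turned ratios compare different cells. Their median was 922 and 828 non-mitochondrial UMIs over the limit, against 1324.5 and 1357 under it. Under the limit, T-like cells were 5.25% and 6.68% of the 400 and 629 cells of bounded depth, and neutrophil-like cells 7.50% and 2.70%. Dendritic-like cells were 6.75% and 5.88%, and macrophage-like cells 18.25% and 26.2%. The interferon cluster 5, part of the macrophage-like class, was 12.0% and 21.6% of the same 400 and 629 cells. Over the limit, T-like cells were 2.43% and 2.74% of the 865 and 1716 cells, dendritic-like cells 11.3% and 6.76%, macrophage-like cells 7.40% and 7.17%, and cluster 5 2.54% and 2.56%, while cluster 1 held 23.2% and 31.4%. Named macrophage-like cells were thus fewer over the limit although the macrophage list was higher there. The unnamed cluster 3 was the largest part on both sides, with 55.5% and 51.9% over and 60.0% and 57.4% under the limit. The part of depth and make-up in the ratios was not tested.

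Within clusters the T cell and dendritic cell lists behaved differently. In T-like cells of cluster 9 the T cell list stood at 4866 UPM over and 3637 under the limit in control and at 4402 and 4746 in telmisartan, ratios of 0.42 [0.16 to 0.67] and -0.11 [-0.26 to 0.04]. In cluster 7 the dendritic cell list was lower over the limit in both groups, at -1.36 [-1.84 to -0.91] and -1.70 [-2.21 to -1.23]. Over all cells the dendritic cell list stood at 0.09 [-0.12 to 0.30] and -0.48 [-0.67 to -0.29]. The control value changed sign in 7 of 11 alternatives, among them limits of 10 and 30% and bounded depth, but also scalings that shift all genes together. Relative to the all-gene median the control value was -0.01, and it changed side in 3 of 11 alternatives. In both groups together the macrophage list stood at 8924 UPM over and 5487 under the limit in cluster 7, and at 5629 and 9819 in cluster 9. Macrophage transcripts thus moved against the list of the lineage in cluster 7, and their part in these values was not tested.

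Shares of cells with a marker were read after thinning, which drew 500 non-mitochondrial UMIs from each cell and left out 1543 control and 2385 telmisartan cells over the limit and 0 and 1 under it. The cells kept over the limit had a median of 1096.5 and 934.5 non-mitochondrial UMIs, against 8431.5 and 6002 under it. A UMI of the T cell list was found in 5.53% and 5.91% of all cells over the limit and in 4.72% and 4.54% after thinning, against 11.1% and 11.2% under the limit and 2.33% and 3.59% after thinning. In macrophage-like cells of both groups together, which should lack these genes, it was found in 2.21% over and 0.833% under the limit after thinning (7.71% and 9.93% before), at median depths of 2351 and 8110. T cell transcripts were thus found in few cells over the limit. After thinning this was more often than in the macrophage-like ones, but before thinning it was less often.

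Macrophage transcripts were spread widely in the same way. A UMI of the macrophage list was found in 93.5% and 94.8% of all cells over the limit and in 96.8% and 97.8% after thinning, against 99.7% and 99.6% under the limit and 95.6% and 94.9% after thinning. In T-like cells of both groups together, which should lack it, thinning left it in 72.0% over and 65.6% under the limit (86.7% and 92.9% before), at median depths of 606 and 4044. A UMI of this list in a cell over the limit does not, at this background, mark a macrophage. Cells with no marker of any of 14 lists were 3.93% and 3.02% over and 0.0194% and 0.0412% under the limit, and after thinning 1.20% and 0.684% over and 1.20% and 1.65% under.

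Fibroblast genes were the lineage with the largest ratio, although a sort for CD45 should remove fibroblasts. The 6 fibroblast markers had 250 UMIs (124 UPM) in control and 642 UMIs (190 UPM) in telmisartan over the limit, against 8.24 and 15.2 UPM under it, a ratio of 3.92 [3.68 to 4.15] and 3.64 [3.47 to 3.82]. It stayed above the all-gene median under every alternative run, and was smallest at 1.23 and 1.69 in cells of bounded depth. No marker was at 0, and *Col3a1* and *Col1a1* were the most abundant. *Col1a1* and *Col1a2*, the chains of type I collagen, stood at 3.85 and 3.92 and at 4.17 and 3.61, and *Sparc*, a protein of the matrix that is not in the list, at 4.12 and 3.38.

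These fibroblast UMIs were found in few cells, with few UMIs in each. In both groups together, 659 of them lay in cluster 1, at 419 UPM over the limit. The list stood at 65.0 UPM in cluster 3 and at 146 in the T-like cluster 9, the highest of the named clusters with enough cells. After thinning, a UMI of the fibroblast list was found in 27 of 1080 control cells and 130 of 2048 telmisartan cells (6.35%) over the limit, against 0.505% and 1.09% under it, and before thinning in 6.60% and 9.25% against 5.75% and 7.57%. No cell over the limit held more than 15 UMIs of *Col1a1*. In macrophage-like cells of both groups together, which should lack it, the list was found in 2.01% over and 0.644% under the limit after thinning (48 of 532 and 554 of 7919 before), at median depths of 2351 and 8110. No cluster was named for fibroblasts, and the part of RNA from other cells was not tested. At a resolution of 0.8, however, *Sparc* and *Col19a1* led an unnamed cluster of 517 cells, 512 of them over the limit, together with *Tk1*, *Ccna2*, *Tpx2* and *Ube2c* of dividing cells.

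Red cell transcripts were also concentrated over the limit, but on few UMIs. The 5 erythroid markers had 64 UMIs over the limit in control and 15 in telmisartan, a ratio of 2.91 [2.48 to 3.33] and 2.18 [1.19 to 3.11], with *Hba-a1* (alpha globin) and *Hbb-bs* (beta globin) most abundant. The ratio kept its direction under every alternative run, but at bounded depth it was 0.76 [-0.39 to 2.04] on 25 against 9 UMIs and 0.66 [-1.82 to 4.01] on 6 against 2, with both intervals across 0. *Hbb-bt* and *Alas2* were at 0 in telmisartan cells over the limit.

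Other lineages left little RNA over the limit. The 7 neutrophil markers had 211 and 323 UMIs, led by *Mmp8* with *Ly6g* at 0, and ratios of -0.15 [-0.36 to 0.05] and -0.26 [-0.43 to -0.09], though the median gene of telmisartan lay at 0.40, and the ratios were -3.86 and -1.89 in cells of bounded depth. The 5 B cell markers had 7 and 24 UMIs, and ratios of 0.35, with an interval across 0, and 1.23 [0.52 to 1.88], led by *Pax5* and *Cd79b*. The 5 NK cell markers had 9 and 17 UMIs with *Ncr1* at 0, and ratios of -0.10 [-1.24 to 0.85] and 0.27 [-0.55 to 1.00]. The 5 endothelial markers had 36 and 32 UMIs, led by *Vwf* and *Cdh5*, and ratios of 1.22 [0.68 to 1.71] and 0.18 [-0.39 to 0.72]. Of these 4 lists only the B cell list in telmisartan and the endothelial list in control had intervals above 0. At bounded depth both of these intervals crossed 0, at 0.25 [-1.59 to 2.40] and 0.19 [-1.14 to 1.64].

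Platelet, mast cell, plasmacytoid and epithelial markers were rarer still or mixed. The 2 platelet markers in the data had 28 and 48 UMIs, nearly all *Ppbp*, and ratios of -0.43 [-1.03 to 0.11] and 0.54 [0.07 to 0.99]. On few UMIs, the platelet ratios turned to 2.19 [0.09 to 5.36] and -0.22 [-1.60 to 1.26] at bounded depth. The 4 mast cell markers had 1 and 8 UMIs over the limit and 14 and 7 under it, and ratios of 0.72 [-4.68 to 3.44] and 3.46 [1.81 to 5.16]. The 3 plasmacytoid markers had 1 and 5 UMIs, and ratios of -0.33 [-5.68 to 2.26] and 0.51 [-1.21 to 1.87]. The 4 epithelial markers in the data had 4 and 12 UMIs, all *Epcam*, with *Krt8*, *Krt18* and *Krt19* at 0, so keratins of carcinoma cells were not detected over the limit. Their ratios were -1.01 [-2.90 to 0.37] and 0.77 [-0.25 to 1.67], and the control value turned to 0.87 in cells of bounded depth. The part of these marker lists in the other results was not tested.

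Over all genes with at least 100 UMIs in a group, the median log2 ratio of over to under was 0.11 in control and 0.11 in telmisartan. Counted per 1000000 UMIs with the mitochondrial ones included it was -0.77 and -0.70, with TMM factors (a scaling that trims extreme genes) -0.35 and -0.33, and in cells of bounded depth -0.01 and -0.01, so the lists below are read relative to these medians. At least 2 times higher over the limit were 959 of 10851 genes (8.84%) in control and 557 of 10532 (5.29%) in telmisartan. At least 2 times lower were 311 (2.87%) and 111 (1.05%). Of the 2739 and 4237 genes with enough UMIs at bounded depth, 39 (1.42%) and 92 (2.17%) were higher and 67 (2.45%) and 113 (2.67%) lower.

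The pools were alike in which genes were high. Across 10436 genes with enough UMIs in both groups, Pearson's r of the ratios was 0.76, a description across genes, which are not independent and come from 1 capture. Of these genes, 8248 (79.0%) had the same sign in both groups. At least 2 times higher in both groups were 383 genes, 39.9% of the control and 68.8% of the telmisartan genes, and at least 2 times lower in both were 39, 12.5% and 35.1%.

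Nuclear noncoding RNA was higher over the limit in both groups. *Malat1*, on chromosome 19 from 5795690 to 5802672 (GRCm38), stood at 16542 UPM over and 3147 under the limit in control and at 17106 and 4252 in telmisartan. That was a ratio of 2.39 [2.38 to 2.41] and 2.01 [1.99 to 2.02], which shrank to 0.28 and 0.23 in cells of bounded depth. *Neat1*, which builds nuclear paraspeckles, stood at 1.20 and 1.04, and at -0.11 and -0.20 in cells of bounded depth. *Kcnq1ot1*, *Pvt1* and *Tug1* stood at 1.01 and 1.27, 1.23 and 1.12, and -0.03 and -0.02. The list of 8 such RNAs had a ratio of 2.29 [2.27 to 2.30] and 1.94 [1.93 to 1.96] and 0.26 and 0.22 at bounded depth, and 5 of its 6 genes with enough UMIs were higher in each group.

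The ratio of *Malat1* was above 0 in each of the 8 clusters with enough cells on both sides of the limit, and smallest in the unnamed cluster 3. In cluster 3 it was 0.68 and 0.99, and in the macrophage-like cluster 2 1.79 and 1.40. In the mitotic cluster 6 it was 2.71 and 2.67, in the dendritic-like cluster 7 2.74 and 2.62, and in the T-like cluster 9 2.62 and 2.14. After thinning, *Malat1* was found in 94.8% and 91.9% of cells over and 72.3% and 80.3% under the limit, and before thinning in 73.5% and 74.6% against 99.7% and 99.6%. Many shallow cells over the limit therefore had no *Malat1* UMI, while those deep enough for thinning nearly all had one.

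Among genes with at least 500 UMIs in each group, those highest over the limit in both groups were led by *Col19a1*, *Gm10800* and *Gm47283*. *Col19a1*, a nonfibrillar collagen on chromosome 1 from 24261890 to 24587472, had 283 UMIs at 141 against 14.4 UPM in control and 466 at 138 against 14.5 in telmisartan, ratios of 3.29 [3.08 to 3.49] and 3.25 [3.06 to 3.44]. No cell over the limit held more than 3 of its UMIs. *Gm47283*, on chromosome Y from 90784738 to 90816464, stood at 830 against 87.3 and 1700 against 214 UPM, ratios of 3.25 [3.17 to 3.33] and 2.99 [2.94 to 3.04]. *Gm10800*, on chromosome 2 from 98666547 to 98667301, stood at 4.02 [3.78 to 4.26] and 3.22 [3.02 to 3.42]. In cells of bounded depth these were 3.44 and 2.09, 1.45 and 1.17, and 0.93 and 0.52, so each stayed higher.

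Others of the 15 highest were unnamed loci or genes with diverse roles. The noncoding *Gm26870*, *Gm26917*, *Gm42047* and *Gm20186* stood at 3.47 and 2.91, 2.46 and 2.03, 2.14 and 1.88, and 2.00 and 1.83, but *Gm20186* at -0.13 and -0.03 in cells of bounded depth. *Ap2s1*, a subunit of the clathrin adaptor, stood at 2.17 and 1.87, and *Pgls*, of the pentose phosphate pathway, at 1.94 and 1.71. The phosphodiesterases *Pde1b* and *Pde1c* stood at 2.33 and 1.82 and at 1.99 and 1.80, but *Pde1b* at -0.12 in control cells over 60%. *Plcl1*, related to phospholipase C, stood at 2.24 and 1.59, and *Sh3pxd2a*, a scaffold of podosomes, at 1.57 and 1.64.

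*Gzmd*, a granzyme, had most of its UMIs over the limit in single cells. It had 189 UMIs over the limit in control, 162 of them in 1 cell, and 237 in telmisartan, 153 of them in 1 cell. Its ratios were 2.27 [2.03 to 2.49] and 2.02 [1.79 to 2.24], and 0.26 and 1.63 without the cell with the most UMIs on each side of the limit.

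The genes lowest over the limit in both groups, with the same minimum of UMIs, included *Spp1* and *Cd53*. *Spp1*, which encodes osteopontin, was the most abundant of the 15, on chromosome 5 from 104435118 to 104441050, at 1475 against 3549 UPM in control and 963 against 2226 in telmisartan. Its ratios were -1.27 [-1.32 to -1.21] and -1.21 [-1.26 to -1.16], and -0.37 and -0.05 in cells of bounded depth. *Cd53*, a leukocyte tetraspanin on chromosome 3 from 106759921 to 106790149, stood at -1.14 [-1.25 to -1.03] and -1.22 [-1.31 to -1.13], and at -1.10 and -0.88 at bounded depth. *Qpct*, which cyclizes N-terminal glutamine, stood at -2.48 [-3.23 to -1.81] and -1.59 [-2.12 to -1.10] on 18 and 35 UMIs, and at 0.58 in telmisartan cells of bounded depth. *Tob1*, an inhibitor of proliferation, stood at -1.26 and -1.30, and *Ssr2*, of the translocon complex in the endoplasmic reticulum, at -1.15 and -1.31.

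The rest of the 15 lowest had ratios between -1.62 and -1.02. *Mgat2*, of N-glycan synthesis in the Golgi, stood at -1.54 and -1.12, *Sirpb1a*, a myeloid receptor, at -1.22 and -1.62, and *Thbd*, thrombomodulin, at -1.07 and -1.02. *Rcn2*, a calcium-binding protein of the endoplasmic reticulum, stood at -1.38 and -1.15, and *Rnase6*, a secreted ribonuclease, at -1.37 and -1.09. *A530064D06Rik*, *Mgarp*, *Tmem68*, *Cldnd1* and *9530068E07Rik* stood at -1.14 and -1.21, -1.05 and -1.52, -1.19 and -1.04, -1.07 and -1.03, and -1.03 and -1.02. In cells of bounded depth *Rcn2* at 0.08 and *Rnase6* at 0.19 turned in telmisartan, and *9530068E07Rik* at 0.71 in control.

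Long genes and noncoding genes were high as groups. Among the 2076 genes with the longest span, 71019 to 4434882 bases from start to end, the median ratio was 0.51 and 0.41, and 19.1% and 12.4% were at least 2 times higher. Among the 2076 genes with the shortest span, 168 to 8807 bases, it was -0.10 and -0.03, with 5.59% and 3.32% at least 2 times higher. Among 153 long intergenic noncoding genes it was 0.59 and 0.40, with 42 (27.5%) and 28 (18.3%) at least 2 times higher, against 8.84% and 5.29% of all genes. Among 97 antisense genes it was 0.46 and 0.27. Protein-coding genes, 10114 in all, had medians of 0.09 and 0.11, and 7.98% and 4.59% of them were at least 2 times higher. Intronic reads were counted in these data, and the part of unspliced RNA was not tested.

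Of 36 lists of genes, 10 lay by their sums on the same side of the all-gene median in both groups under every alternative run. The 3 that were higher over the limit were nuclear noncoding RNA, fibroblast and erythroid genes. The nuclear noncoding sum was mostly *Malat1*, with 33252 of 35148 UMIs over the limit in control and 57683 of 60434 in telmisartan. At bounded depth *Malat1* stood at 0.28 and 0.23, but *Neat1* at -0.11 and -0.20. The 7 that were lower were the monocyte, cell death, immediate-early, integrated stress response, hypoxia, iron storage, and chemokine and cytokine lists. In the immediate-early list, however, 8 of 12 genes lay above the all-gene median in each group, and in the integrated stress response 5 of 9, so their sums were lower through a minority of genes. All other lists changed side in at least 1 group under some alternative. Scaling to all UMIs and TMM factors shift all genes together, so in any comparison with the all-gene median they could not change a side.

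**Figure D3:**
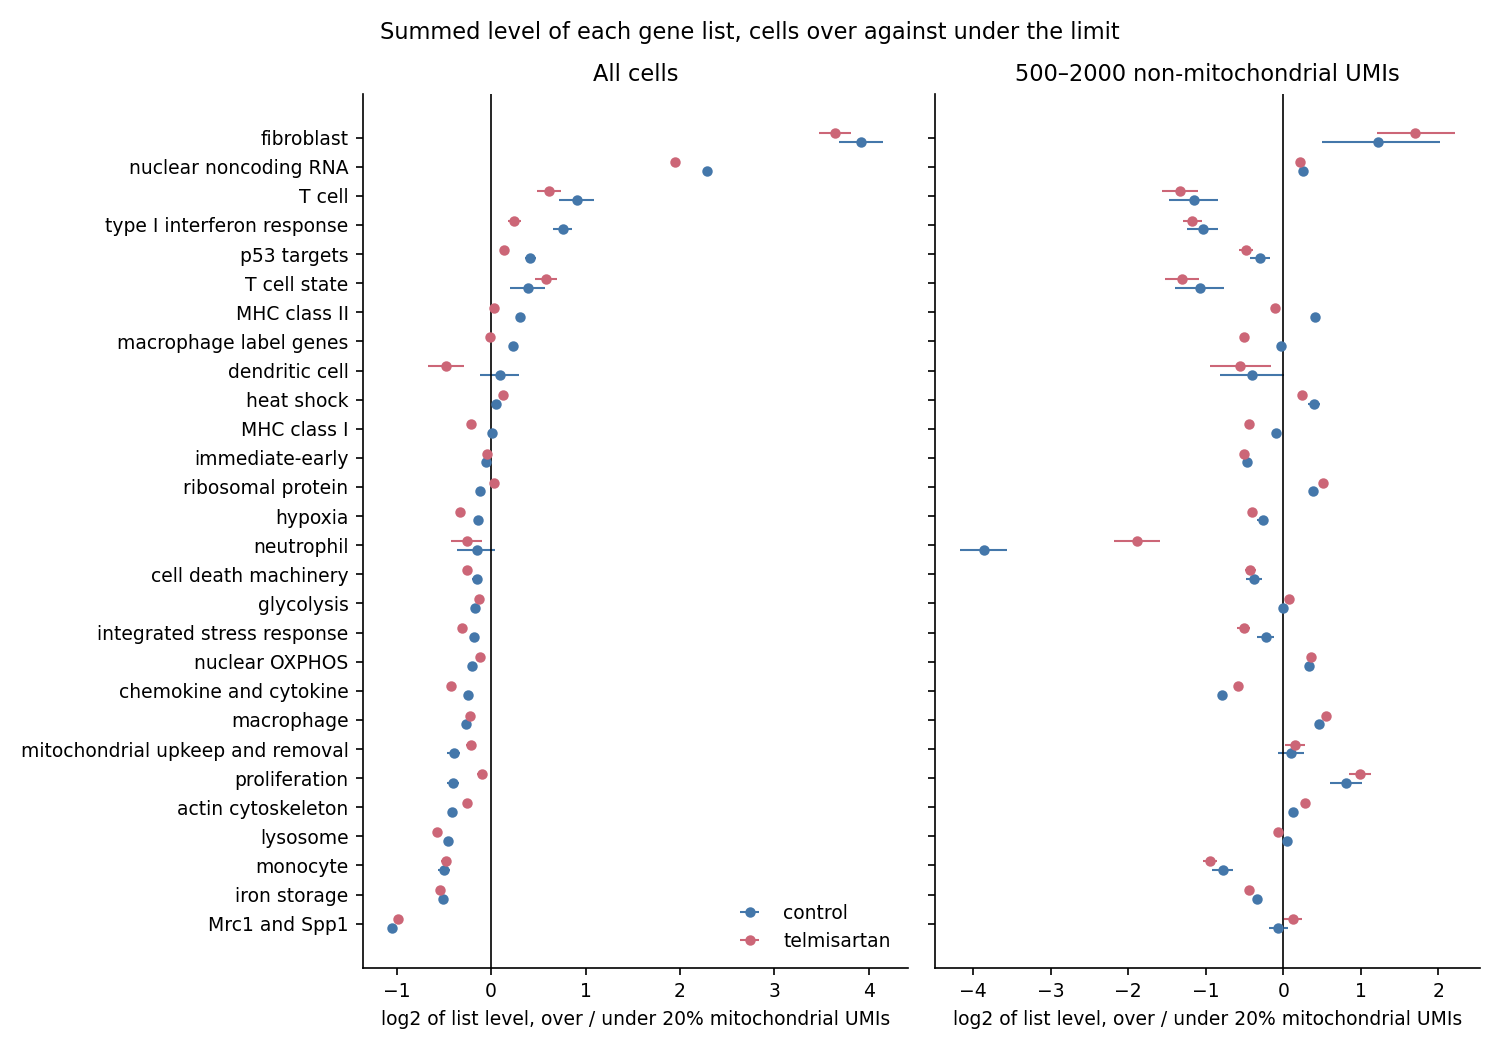
Log2 ratio of the summed level of each gene list, cells over against cells under 20% mitochondrial UMIs, for control and telmisartan, in all cells (left) and in cells with 500 to 2000 non-mitochondrial UMIs (right), for lists with at least 100 UMIs over the limit in both groups; points are list sums and bars 95% counting intervals. Fibroblast genes at 3.92 and 3.64 and nuclear noncoding RNA at 2.29 and 1.94 lie far to the right in all cells, and T cell genes turn from 0.91 and 0.61 to -1.16 and -1.33 and macrophage genes from -0.27 and -0.22 to 0.46 and 0.55 at bounded depth.

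Genes of cell death were not higher over the limit. The 20 genes of the death machinery had a summed ratio of -0.15 [-0.20 to -0.11] and -0.26 [-0.29 to -0.22] and a median of -0.04 and -0.04, and 0 were changed by 2 times either way. *Mcl1*, a survival protein with a short-lived mRNA, was the most abundant, at -0.42 and -0.56. The 8 targets of p53 stood at 0.41 [0.35 to 0.47] and 0.14 [0.09 to 0.18], led by *Cdkn1a*, the cell cycle inhibitor p21, at 0.47 and 0.16. The median p53 target lay at -0.03 and -0.28, and the list turned to -0.30 and -0.48 at bounded depth. The integrated stress response stood at -0.18 [-0.23 to -0.13] and -0.31 [-0.35 to -0.27], with *Hspa5* lower at -0.51 and -0.67 and *Atf4*, its transcription factor, higher at 0.84 and 0.59. Within this list the median was 0.36 and 0.21, so sum and median differ in sign.

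Early response and heat shock genes lay near the all-gene median when all cells were counted. The 12 immediate-early genes stood at -0.05 [-0.07 to -0.04] and -0.05 [-0.06 to -0.03], with a median of 0.29 and 0.14, since *Fos* was lower at -0.91 and -0.54 and *Jund* higher at 0.62 and 0.30. At bounded depth this list stood lower, at -0.47 and -0.50. The 8 heat shock genes stood at 0.05 [0.02 to 0.08] and 0.13 [0.11 to 0.15], with *Hspa1b* lower at -0.52 and -0.54, and at 0.40 and 0.24 at bounded depth. The 12 hypoxia genes stood at -0.14 [-0.17 to -0.11] and -0.33 [-0.35 to -0.31], and the 9 glycolysis genes at -0.17 [-0.19 to -0.15] and -0.13 [-0.14 to -0.11], but the latter lay above the all-gene median at bounded depth, at -0.01 and 0.07. Of all these genes only *Hk2*, in control, reached 2 times, at 1.00.

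By their sums over all cells, genes for mitochondrial parts made in the nucleus were not high in these cells. The 84 genes of oxidative phosphorylation encoded in the nucleus stood at -0.20 [-0.22 to -0.19] and -0.11 [-0.13 to -0.10], with 20 of 79 and 26 of 78 higher and 0 changed by 2 times, but at 0.33 and 0.35 in cells of bounded depth. The 17 genes of mitochondrial upkeep and removal stood at -0.40 [-0.46 to -0.33] and -0.22 [-0.27 to -0.17], and at 0.10 and 0.15 at bounded depth. Of the upkeep genes with enough UMIs, 6 of 16 and 8 of 16 were higher, with medians of -0.31 and 0.00. In each group 1 of them was at least 2 times higher, while *Bnip3*, a receptor of mitophagy, was lower at -0.44 and -0.51. The upkeep list also turned above 0 in cells over 60%, and in telmisartan when each cell counted equally.

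Summed over all cells, the actin, ferritin and lysosome lists were lower over the limit in both groups, though not every gene was. Of 9 actin genes 3 were higher in each group, and of 12 lysosome genes 3 were higher in control and 0 in telmisartan. The 9 actin cytoskeleton genes stood at -0.41 [-0.43 to -0.40] and -0.26 [-0.27 to -0.25], with *Actb* at 13634 against 17115 UPM in control and 13219 against 14487 in telmisartan, but the list stood at 0.13 and 0.28 in cells of bounded depth. The ferritin genes *Fth1* and *Ftl1* were lower, with a list ratio of -0.51 [-0.53 to -0.49] and -0.54 [-0.55 to -0.52], and -0.34 and -0.44 at bounded depth. The 12 lysosome genes stood at -0.46 [-0.48 to -0.44] and -0.57 [-0.59 to -0.56], and at 0.05 and -0.07 at bounded depth, with *Ctss*, the protease cathepsin S, at -0.97 and -1.13. The 84 ribosomal protein genes stood at -0.12 [-0.12 to -0.11] and 0.03 [0.02 to 0.03], with 19 of 82 and 36 of 81 higher, and at 0.38 and 0.51 at bounded depth. Of these lists, iron storage alone kept its direction under every alternative run.

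Immune effector genes were mixed. The 4 MHC class II genes, which present peptides to helper T cells, stood at 0.31 [0.29 to 0.32] and 0.03 [0.02 to 0.05], and the control value lay below the all-gene median at a limit of 30%, in cells over 60% and when each cell counted equally. The 6 MHC class I genes stood at 0.01 [-0.01 to 0.03] and -0.21 [-0.23 to -0.20]. The 20 chemokine and cytokine genes stood at -0.25 [-0.26 to -0.23] and -0.43 [-0.44 to -0.42], with *Ccl8* higher at 1.24 and 1.25 and *Ccl12* lower at -1.06 and -0.69. The 8 type I interferon genes stood at 0.76 [0.66 to 0.86] and 0.25 [0.18 to 0.32], led by *Oasl2* and *Isg15*, but turned to -1.04 and -1.17 at bounded depth, where the interferon cluster 5 was a larger part of the cells under the limit, as given above. *Isg15*, a ubiquitin-like protein, stood at 1.01 and 0.51.

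State genes of macrophages and T cells followed no common direction. The 18 genes that label macrophage states in the study stood at 0.24 [0.22 to 0.26] and -0.01 [-0.03 to 0.01], with *Lilra6* lower at -1.19 and -1.01, and at -0.02 and -0.50 at bounded depth. The pair *Mrc1* and *Spp1* stood at -1.05 and -0.98, and at -0.06 and 0.13 at bounded depth. The 10 T cell state genes stood at 0.39 [0.20 to 0.57] and 0.58 [0.46 to 0.70], and at -1.08 and -1.31 at bounded depth, with *Ctla4*, a checkpoint receptor, at 0.52 and 0.51. The 12 proliferation genes stood at -0.40 [-0.46 to -0.34] and -0.10 [-0.15 to -0.06], but at 0.81 and 0.99 at bounded depth.

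Transcripts followed different courses as the mitochondrial share went up. *Malat1* peaked at shares of 40 to 60%, with 21954 and 20317 UPM, after 2618 and 3404 at 5 to 10%, and stood at 4748 and 3302 at 80 to 100%. *Gm47283* had the same peak, with 1357 and 2335 UPM, against 73.0 and 170 at 5 to 10%. *Cd74*, the invariant chain of MHC class II, peaked earlier, at 20 to 40%, with 9861 and 6309, and stood at 3394 and 2666 at 80 to 100%. *Lyz2* stood at 11706 and 10908 at 5 to 10% and varied between 5149 and 7428 in the 4 ranges over the limit.

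Other transcripts were highest at shares above 60%. *Col19a1* stood at 168 and 152 UPM at 40 to 60% and at 716 [524 to 955] and 848 [641 to 1101] at 80 to 100%. *Sparc* stood at 5.09 and 10.3 at 5 to 10% and at 545 [380 to 758] and 651 [471 to 877] at 80 to 100%. The fibroblast list stood at 6.90 and 13.2 at 5 to 10%, 163 and 261 at 40 to 60%, and 405 and 439 at 80 to 100%, but was highest in telmisartan at 60 to 80%, with 564. Ribosomal protein genes stood at 95128 and 111180 at 40 to 60% and at 124060 and 132628 at 80 to 100%, and proliferation genes at 987 and 1164 at 20 to 40% and 3005 and 3347 at 80 to 100%. Cells at 80 to 100% numbered 265 and 256, with a median of 214 and 227 non-mitochondrial UMIs. Of these, 264 and 249 lay in cluster 1.

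**Figure D4:**
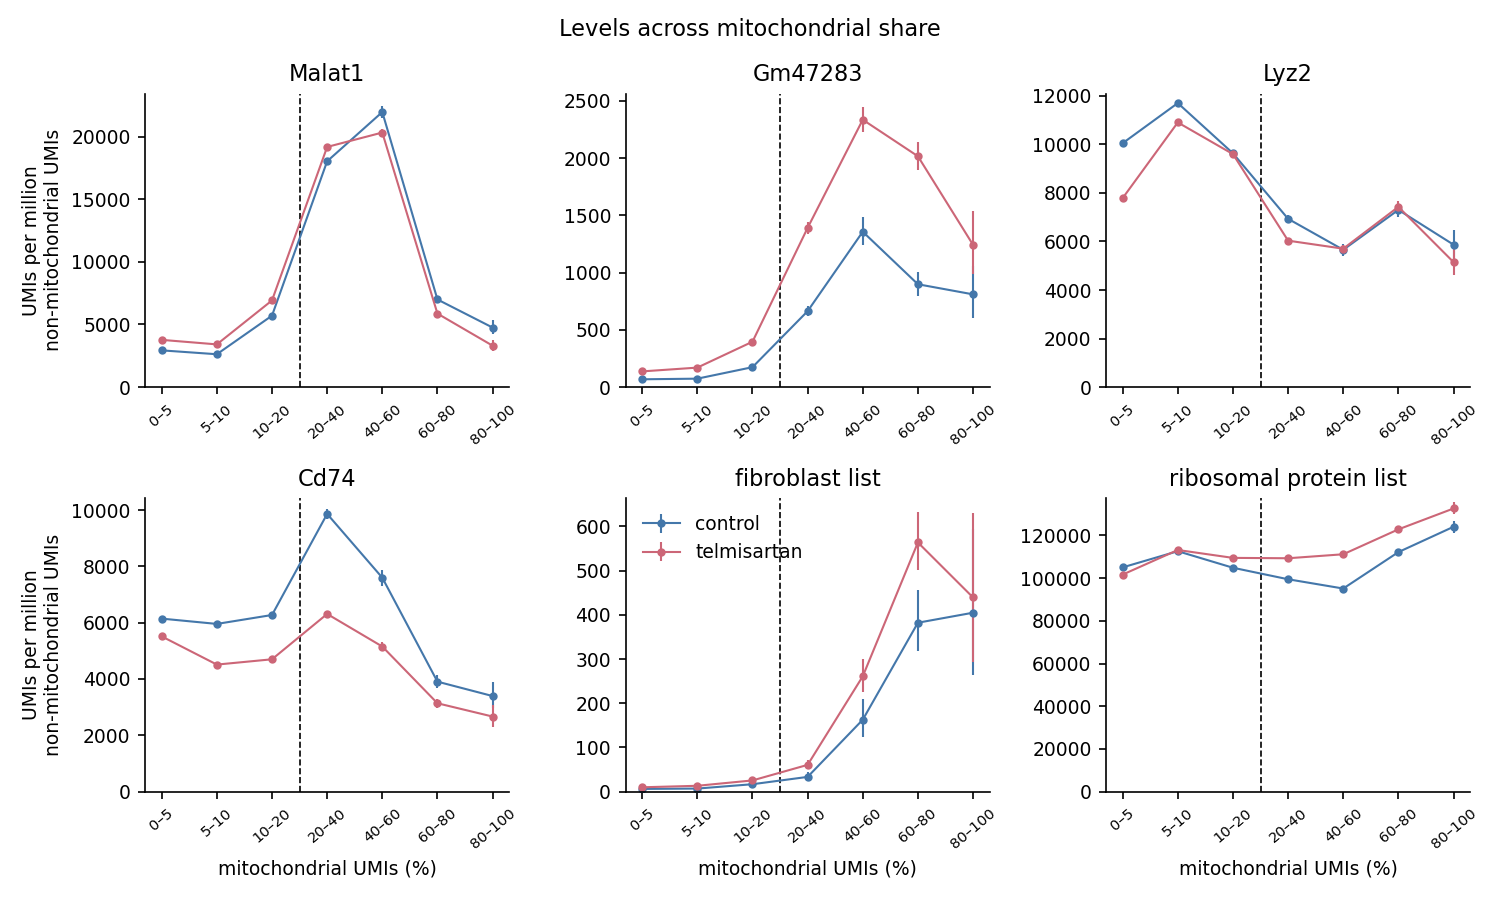
Level (UMIs per 1000000 non-mitochondrial UMIs, axes from 0) of Malat1, Gm47283, Lyz2, Cd74, the fibroblast list and the ribosomal protein list in 7 ranges of mitochondrial share (%), for control and telmisartan, with exact 95% Poisson intervals and a dashed line at the limit of 20%. Malat1 and Gm47283 peak at 40 to 60% in both groups, whereas the fibroblast list stands at 405 and 439 at 80 to 100% against 6.90 and 13.2 at 5 to 10%.

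Finally, telmisartan was compared with control within cells over the limit, beside the same comparison under it. Of 6704 genes with at least 100 UMIs over the limit, 23 (0.343%) were at least 2 times higher in telmisartan and 9 (0.134%) at least 2 times lower. Under the limit these were 145 (1.25%) and 26 (0.224%) of 11625 genes. The median log2 ratio of telmisartan to control was -0.01 over and -0.03 under the limit. No difference between the 2 sides of the limit was tested.

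MHC class II genes were lower in telmisartan on both sides of the limit, in 4 of 4 genes. The list stood at 12642 against 19389 UPM over the limit, a ratio of -0.62 [-0.64 to -0.60], and at -0.34 [-0.35 to -0.34] under it. *Cd74* stood at -0.59 and -0.35, and *H2-Ab1* at -0.65 and -0.30, over and under the limit. *Ciita*, the activator that switches on these genes, was among the 10 genes lowest in telmisartan over the limit at -0.89 [-1.18 to -0.59], and stood at -0.67 under it. The direction of the list over the limit held under every alternative run. The 18 genes of macrophage states, which include *H2-Ab1* and *H2-Eb1*, stood at -0.53 over and -0.28 under.

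Other lists differed between the pools in the same or in the opposite direction on the 2 sides of the limit. Type I interferon genes stood at 0.40 [0.28 to 0.52] over and 0.91 [0.88 to 0.95] under the limit, with 7 and 8 of 8 genes higher in telmisartan. T cell genes stood at 0.51 [0.30 to 0.72] and 0.80 [0.73 to 0.87], though the former changed sign in cells of bounded depth. *Apoe* stood at 0.76 and 1.09, *Mrc1* at -0.51 and -0.51, and *Spp1* at -0.62 and -0.67. Fibroblast genes stood at 0.61 [0.40 to 0.83] and 0.89 [0.69 to 1.08], and erythroid genes at -2.84 [-3.76 to -2.01] on 15 against 64 UMIs and at -2.11 [-2.69 to -1.56] on 32 against 196. Opposite signs over and under the limit were found in 7 lists with intervals clear of 0 on both sides. These were dendritic cell genes at -0.41 and 0.16, MHC class I at -0.08 and 0.14, hypoxia at -0.05 and 0.14, lysosome at -0.06 and 0.06, chemokine and cytokine at -0.03 and 0.15, proliferation at 0.17 and -0.13, and mitochondrial upkeep at 0.08 and -0.10. Only MHC class I and lysosome genes kept both signs under every alternative run, and dendritic cell genes over the limit turned to 0.17 at a limit of 30%. Of 6701 genes with enough UMIs on both sides, 4023 (60.0%) had the same sign.

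Ribosomal protein genes differed more between the pools over the limit than under it. Their list stood at 0.15 [0.14 to 0.15] over the limit, with 78 of 81 genes higher in telmisartan, and at 0.00 [0.00 to 0.01] under it, with 39 of 82 higher. It stayed above the all-gene median over the limit in every alternative run. The nuclear noncoding list stood at 0.04 [0.02 to 0.05] over and 0.38 [0.37 to 0.39] under the limit, which was *Malat1* at 0.05 and 0.43, since 2 of 5 and 1 of 7 genes were higher and the median gene lay at -0.11 on both sides. Over the limit its sign changed at bounded depth. The 8 targets of p53 stood at 0.25 [0.18 to 0.32] and 0.53 [0.51 to 0.55].

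The 10 genes highest in telmisartan relative to control over the limit included some carried by very few cells. *Osbpl5*, a lipid transfer protein, had 494 UMIs in telmisartan and 5 in control, a ratio of 5.88 [4.65 to 7.51], but 236 and 168 of them lay in 2 cells. *Cdh13*, a cadherin, stood at 2.31 [1.67 to 3.02], with 84 of its 183 telmisartan UMIs in 1 cell. *Gramd1b*, a sterol transporter, stood at 1.01 [0.78 to 1.24], with 286 of its 688 telmisartan UMIs in 1 cell. *Gzmg*, a granzyme, stood at 1.01 [0.64 to 1.38] with 191 of 273 UMIs in 1 cell, at -0.92 under the limit, at -1.83 with a tag share of at least 90%, and at -2.81 in cells of bounded depth. Without the cell with the most UMIs of the gene in each pool, these 4 genes stood at 5.27, 1.56, 0.26 and 1.70.

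Others of these genes were spread over more cells and were higher in telmisartan under the limit too. *Lsmem1* stood at 1.10 [0.71 to 1.52] over and 1.96 under the limit. *Gm47283* stood at 1.03 and 1.29, *Trem3*, a myeloid receptor, at 1.01 and 0.77, *Cwc25*, a splicing factor, at 0.98 [0.68 to 1.30] and 1.27, and *Tlcd2* at 0.97 [0.56 to 1.41] and 1.14.

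Among the 10 genes lowest in telmisartan over the limit, *Retnla* differed most between the sides of the limit. *Retnla*, a product of macrophages activated by IL-4, stood at -1.42 [-1.72 to -1.13] over the limit and 0.33 [0.05 to 0.61] under it. In 1 cell lay 89 of its 249 control UMIs over the limit, and without the cell with the most UMIs in each pool the values were -1.002 over and 1.19 under the limit. Its level over the limit was 124 UPM in control and 46.3 in telmisartan, against 4.94 and 6.20 under it. *Ccl17*, a dendritic cell chemokine, stood at -1.04 [-1.30 to -0.78] and -0.89, and *Mgl2*, a lectin, at -0.86 [-1.03 to -0.70] and -1.15. *Gbp5*, an interferon-induced GTPase, stood at -0.91 [-1.27 to -0.56] and -0.40, and *March1*, which ubiquitinates MHC class II, at -0.83 [-1.11 to -0.56] and -0.75.

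The remaining genes were *Lpar6*, a receptor for lysophosphatidic acid, at -0.98 [-1.34 to -0.63] over and -0.55 under the limit, and *Exoc1*, of the exocyst, at -0.93 [-1.34 to -0.52] and -0.15. *Tbc1d14*, a regulator of autophagy, stood at -0.81 [-1.14 to -0.48] and -0.32, and *Dennd4c*, an activator of Rab GTPases, at -0.79 [-1.09 to -0.48] and -0.21. Of the 20 genes with the largest differences over the limit, *Gzmg* and *Retnla* had the other sign under it.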

How the data were processed

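Single-cell mRNA and Sample Tags were measured in 1 BD Rhapsody capture of CD45+ cells from MC38 tumours, with 1 pool of 5 mice per group. Per the file headers, the counts are UMIs per gene and Sample Tag reads per putative cell, which the authors made with the BD Rhapsody pipeline against the GRCm38 genome and the genes of GENCODE M19, counting intronic reads too, with cells called on mRNA with the refined caller and UMI errors corrected by RSEC. They are whole numbers, not normalized, over 20726 cells and 27031 genes. Gene positions came from GENCODE M21.

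A cell was given a group at 10 or more Sample Tag reads with at least 75% on tag 1 (control) or tag 2 (telmisartan), and kept at 150 or more genes. The 1580 cells with split tags and 186 with few tag reads were left out, and no doublet caller was run. The cells and the lists of genes were chosen with earlier results of these data known.

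UMIs were summed by group and side of the limit and scaled to 1000000 non-mitochondrial UMIs. Ratios are log2, for genes with at least 100 UMIs, with exact conditional binomial intervals. Levels have exact Poisson intervals and shares Clopper-Pearson intervals, at 95%. No test between the groups was possible with 1 pool each. Clusters were made with Seurat 5.3.0 in R 4.3.3 without mitochondrial genes (2000 variable genes, 30 principal components, 20 neighbors, resolution 0.5). A marker was detected in a cluster at 10 or more UMIs in 10% or more of its cells, and high if also at least 4 times higher than elsewhere. A cluster was named for a lineage other than macrophages with at least 3 high markers, if its median UMIs were at least 0.333 of those of its group in both groups or a marker was among its 10 leading genes. Other clusters were macrophage-like if at least 3 macrophage markers were detected and their median UMIs were at least 0.333 of those of cells under the limit in both groups, or a macrophage marker was among the 10 leading genes. The rest stayed unnamed. Of 36 lists of genes, 14 hold lineage markers.

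Genes were named from these lists, and from the 15 highest and 15 lowest over the limit with at least 500 UMIs in each group, ranked by the ratio nearer to 0 where both groups had the same sign. The 10 highest and 10 lowest in telmisartan against control, with at least 200 UMIs over the limit, were added. Other genes, such as those leading a cluster, were chosen after their values were seen.

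Alternatives were a tag share of 90%, at least 500 or at most 5000 genes, limits of 10 and 30%, scaling to all UMIs, TMM factors of edgeR 4.0.16, means over cells, cells with 500 to 2000 non-mitochondrial UMIs (called bounded depth, as medians still differed by side), genes with at least 20 UMIs, and resolutions of 0.3 and 0.8. Thinning to 200 UMIs and the ranges of 20 to 60% and over 60% were added after seeing the data. Python 3.11.15, numpy 2.4.6, scipy 1.17.1, pandas 2.3.3 and matplotlib 3.10.9 were used, and the computation of ratios and intervals was tested on simulated data.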

Additional observations from a re-analysis of the deposited data

Results flagged for a closer look

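In 54 of 10436 genes the log2 ratio of over to under the limit had opposite signs in the groups, with both counting intervals clear of 0. Among them were *Id3* at 1.10 in control and -1.10 in telmisartan on only 14 and 22 UMIs over the limit, *Trac* at 0.56 and -0.57, *Nos2* at 0.31 and -0.42, and *Gzmc* at -1.03 and 0.64, which were picked after their values were seen. Each group was 1 pool, and the difference was not tested.

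Cells without a group also included many over 20% mitochondrial UMIs. Of 1477 cells with tag reads split between tags and at least 150 genes, 518 (35.1% [32.6 to 37.6]) were over the limit. Of 172 such cells with few tag reads, 50 (29.1% [22.4 to 36.5]) were. They entered no comparison.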

How the results depend on the processing

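Of 150 summary values under 15 alternatives, 67 stayed near the main value, 83 moved, and 0 of those past a 2-fold ratio at first changed sign. Below that ratio some did, such as the T cell list given below. A further tally held 690 values, which were ratios of other lists and shares of cells with a marker after thinning. Of these, 256 stayed, 433 moved and 1, past a 2-fold ratio at first, changed sign. Single genes were not in that tally, and some past that ratio also turned. *Neat1* stood at -0.11 and -0.20 at bounded depth, and *Gzmg*, *Qpct*, *Gm20186* and *9530068E07Rik* changed sign in at least 1 value. Of the 678 list ratios in that tally, 552 kept their sign. With at most 5000 genes no summary value moved. Values are for control and then telmisartan. Cells over the limit were 36.2% and 49.3% at a tag share of 90%, 13.9% and 23.1% with at least 500 genes, 50.2% and 65.3% at a limit of 10%, and 27.8% and 39.9% at 30%.

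With at least 500 genes, 664 and 254 genes were at least 2 times lower, and the list ratios were -0.19 and -0.11 for macrophage genes, 2.20 and 2.44 for fibroblast genes and 0.49 for T cell genes in control. At a limit of 10%, 288 and 245 genes were higher and 33 and 23 lower, the macrophage list stood at 0.19 and 0.18, the fibroblast list at 2.60 and 2.65, and the T cell list in telmisartan at 0.92, and 86 genes were higher and 18 lower in telmisartan than in control. At 30% these were 8 and 4, the macrophage list stood at -0.39 and -0.37 and the fibroblast list at 4.49 and 4.13.

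Scaled to all UMIs, 117 and 87 genes were higher and 3849 and 2708 lower, with ratios of -1.14 and -1.04 for macrophage, 0.0337 and -0.20 for T cell and 3.04 and 2.83 for fibroblast genes. With TMM factors, 314 and 181 were higher and 1381 and 733 lower, with -0.72 and -0.67, 0.45 and 0.17, and 3.46 and 3.20. These scalings shift all genes together. As means over cells, the macrophage list stood at -0.30 and -0.27, the fibroblast list at 4.45 and 4.01 and the T cell list in telmisartan at -0.0126, and 19 genes were lower in telmisartan than in control.

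In cells of 500 to 2000 non-mitochondrial UMIs, 39 and 92 genes were higher and 67 in control lower, the lists stood at 0.46 and 0.55 for macrophage, -1.16 and -1.33 for T cell and 1.23 and 1.69 for fibroblast genes, and 13 genes were higher in telmisartan than in control. The epithelial list in control reversed to 0.87 on few UMIs. With genes of at least 20 UMIs, 2510 and 1988 were higher and 690 and 300 lower, since more genes entered. In the ranges added after seeing the data, 594 and 178 genes were lower at 20 to 60%, and 884 and 632 over 60%, where 851 were higher in telmisartan cells.

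At a resolution of 0.3, 14.7% and 23.1% of dendritic-like and 74.9% and 75.2% of unnamed cells were over the limit, and at 0.8, 80.4% and 79.4% of unnamed cells. Low depth was part of the rule that left clusters unnamed. Except where the scaling or the number of genes sets the change, the cause was not tested.

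Limits of the data are 1 pool per group, shallow cells over the limit with a median of 386 and 462 non-mitochondrial UMIs, and RNA from other cells, the part of which was not tested. The direction of the macrophage and T cell lists depended on which cells were compared, and the part of depth in this was not tested. The fibroblast list was higher over the limit under every alternative run. Counting intervals leave out variation between mice. Damaged cells and intact cells with many mitochondria cannot be told apart from these counts.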
